A study of Mus musculus with 18 samples.

Results

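The tumor necrosis factor (TNF) family and its receptors were followed through 9 genes, the ligands *Tnf* and *Tnfsf9*, the receptors *Tnfrsf1a*, *Tnfrsf1b*, *Tnfrsf9*, *Cd40* and *Fas*, and the adaptors *Traf1* and *Traf2*. They were picked by gene symbol from the 56748 genes in the count table, and 9 of 9 were found, each listed 1 time. The cells were RAW264.7, a macrophage line derived from a mouse tumor that was induced with Abelson leukemia virus. There were 18 RNA libraries from 6 conditions, with 3 apiece and the label WT on all 18, made to ask how the phenolic food antioxidant tert-butylhydroquinone (TBHQ) changes the response to a bacterial and to a virus-like stimulus. Control cells were kept in medium alone after they had attached. The stock of TBHQ was made in DMSO, so TBHQ and its carrier cannot be told apart. TBHQ cells received 5 µM TBHQ and were harvested after 4 h. LPS cells received 0.1 µg/mL lipopolysaccharide, the bacterial stimulus, for 12 h. PIC cells received 20 µg/mL poly(I:C), a synthetic double-stranded RNA, for 12 h. LPS + TBHQ and PIC + TBHQ cells were first given 5 µM TBHQ for 4 h, then the same stimulus at the same dose for 12 h. The methods call the libraries of a condition biological replicates, and nothing further says that they came from separate cultures, so p-values measure the spread between these libraries, which may be technical in part.

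TNF is made by macrophages soon after they sense microbial products and is a central driver of inflammation. It is shed from the cell surface by a protease and binds to a pair of receptors, TNFR1 (*Tnfrsf1a*), which most cells carry and which holds a death domain, and TNFR2 (*Tnfrsf1b*), which lacks one and is found mostly on immune and endothelial cells. TRAF adaptor proteins and ubiquitin ligases gather at these receptors and at relatives such as CD40, and pass the signal to NF-κB and MAP kinases, whereas Fas and TNFR1 can also start cell death.

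Each library held 14423390 to 18851626 counts on genes (median 15742337), and the floor of detection, set at 3 counts per library, lay between 0.159 and 0.208 CPM (counts scaled to library size), which covers counting error only. The lowest count of any of the 9 genes was 20, for *Tnfrsf9*, and 9 of 9 passed the filter on low counts that left 13691 genes for testing. Levels are given as the authors' FPKM, with the mean ± SD of 3 libraries. These are counts scaled by gene length and library total, times a further factor per library that ran from 0.943 in a control library to 1.12 in a PIC library. Overlap between libraries is stated on the FPKM scale, and was the same in CPM by library totals for *Tnf*, *Tnfrsf1b*, *Cd40*, *Fas* and *Traf1*, but not for the other 4 genes. Changes are log2 fold changes (log2FC) with a standard error from the spread of the replicates. FDR stands for the p-value of edgeR's quasi-likelihood test after Benjamini-Hochberg adjustment over the 13691 genes, and a gene was called at an FDR below 0.05. The macrophage identity of the line was visible in the data: 7 of 7 macrophage marker genes were at or above 1 FPKM in every condition, led by *Lyz2* at 3464 to 4531 FPKM, while 0 of 4 T cell, 0 of 3 B cell, 0 of 3 dendritic cell, 0 of 3 fibroblast, 0 of 4 epithelial and 0 of 3 endothelial marker genes reached 1 FPKM in any condition. As the RNA came from bulk cultures, fewer cells making a transcript and less of it per cell cannot be told apart in any result.

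With each stimulus 9 of 9 genes were called higher than in the control, and TBHQ given beforehand lowered 5 of the 9 with both stimuli. The 9 genes were chosen with earlier results of these data known. The shares of all tested genes set beside their counts are thus description only. With LPS, 9 of 9 genes were called higher than in the control, where 24.0% of all tested genes were, and 0 of 9 lower (edgeR, with 0 also at an unadjusted p under 0.05 and 0 in DESeq2), where 24.1% were. DESeq2 called 8 of 9 higher, without *Tnfrsf1a*. The libraries of LPS and control overlapped in FPKM for *Tnfrsf1a*, and in CPM by library totals for *Tnfrsf1a* and *Tnfsf9*. Overlap was not counted over all tested genes, so it is given for single genes only. The median log2FC of the 9 was 1.91 against -0.0040 for all tested genes. With PIC, 9 of 9 were called higher against 28.6% of all tested genes, and 0 of 9 lower (0 at an unadjusted p under 0.05, 0 in DESeq2) against 30.1%. The median log2FC was 2.88 against -0.015. The libraries of PIC and control overlapped in CPM by library totals for *Tnfrsf1a* and *Tnfrsf9*, and for no gene of the 9 in FPKM. At the stricter limit of an FDR below 0.01 and a log2FC above 2, 4 of 9 passed with LPS (*Tnf*, *Tnfrsf1b*, *Cd40* and *Traf1*), where 1.34% of tested genes did, and 5 of 9 with PIC (these and *Fas*), where 2.70% did. With LPS the log2FC limit of 2 lay inside the range over other settings for *Tnf* (1.95 to 2.07) and *Cd40* (1.94 to 2.31). It lay inside the leave-one-out range for *Tnf* (1.99 to 2.11) and *Fas* (1.81 to 2.03). Both comparisons, and that of TBHQ alone, rest on the same 3 control libraries. When libraries were scaled by their totals alone instead of by TMM, the median of all tested genes moved to -0.23 for PIC against the control and to -0.14 for PIC against LPS, and the calls of *Tnfrsf1a* and *Tnfsf9* in LPS against the control and of *Tnfrsf1a* and *Traf2* in PIC against the control were lost, while 6 of 6 calls in PIC against LPS stayed.

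With TBHQ alone fewer of the genes were called. Against the control, 4 of 9 were called higher (*Tnf*, *Tnfrsf1a*, *Tnfrsf1b* and *Fas*), where 14.2% of all tested genes were, and 1 of 9 lower (*Cd40*), where 14.8% were, with a median log2FC of 0.13 against -8.6e-05 for all tested genes. The count of genes called lower was thus near the share of all tested genes, and the call of *Fas* was lost in some alternative fits. The TBHQ harvest came at 4 h, whereas the study design places the control with the 12 h treatments, so the effects of TBHQ and of the harvest time cannot be told apart in that comparison. After a stimulus the direction was downward. In LPS + TBHQ against LPS, 6 of 9 were called lower, against 12.2% of all tested genes, and 0 of 9 higher (0 at an unadjusted p under 0.05 in edgeR, 0 in DESeq2), against 11.7%. In PIC + TBHQ against PIC, 6 of 9 were again lower, against 15.5%, and 0 of 9 higher (0 at an unadjusted p under 0.05 in edgeR, 0 in DESeq2), against 15.8%. *Tnf*, *Tnfrsf1b*, *Cd40*, *Fas* and *Traf1* were called lower with both stimuli, *Tnfrsf9* with LPS and *Tnfsf9* with PIC. The median log2FC of the 9 genes was -0.35 with LPS and -0.46 with PIC, whereas that of all tested genes was 0.0023 and 0.0089.

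**Figure D1:**
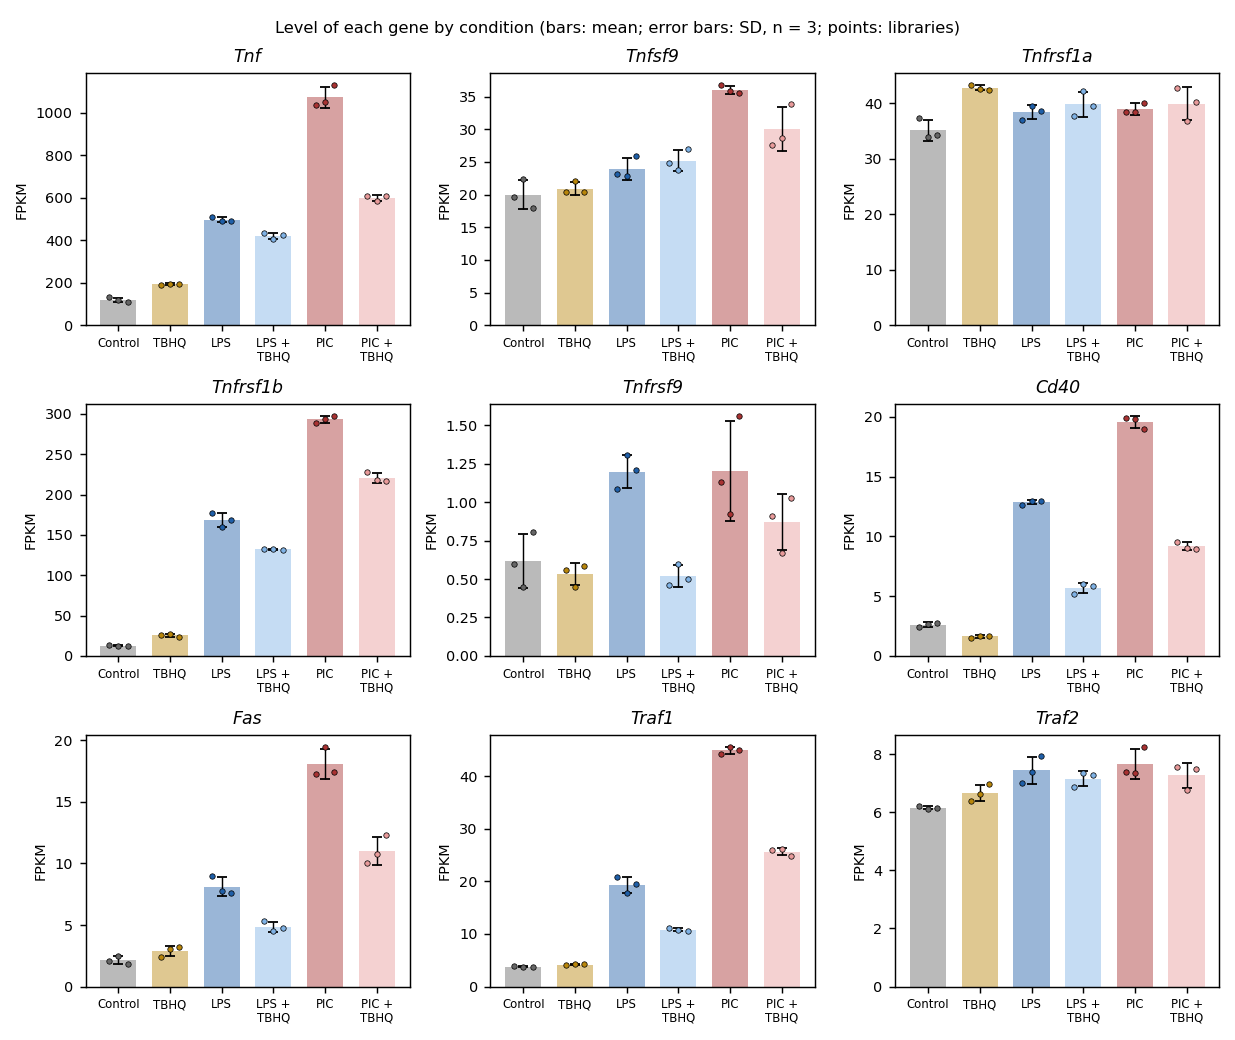
Level of each of the 9 genes in FPKM (vertical axis, starting at 0) in the 6 conditions; bars show the mean, error bars the SD of 3 libraries and points the libraries. *Tnf* reached a mean of 1072 FPKM with PIC and 599.5 FPKM with PIC + TBHQ, whereas *Tnfrsf1a* stayed between means of 35.1 and 42.7 FPKM.

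Of the ligands, *Tnf* (chr17:35418357-35420983, minus strand, in the authors' coordinates) encodes TNF itself. It was read at 132, 118 and 111 FPKM in the control libraries and at 189, 196 and 195 FPKM with TBHQ alone. LPS brought it to 510.4, 492 and 489 FPKM, and LPS + TBHQ to 432, 406 and 423 FPKM. PIC brought it to 1038, 1049.8 and 1129.5 FPKM, and PIC + TBHQ to 607, 583 and 609 FPKM. The 6 conditions were thus separate in every library, in the rising order control, TBHQ, LPS + TBHQ, LPS, PIC + TBHQ and PIC. By its mean FPKM *Tnf* was the gene of rank 371 of 22704 in the control, of rank 87 of 22203 with LPS and of rank 37 of 22441 with PIC. *Tnf* rose 4.12-fold with LPS (log2FC 2.04, SE 0.076, edgeR FDR 9.04e-30) and 8.83-fold with PIC (log2FC 3.14, SE 0.082, edgeR FDR 1.5e-35). TBHQ alone also raised it, by 1.61-fold (log2FC 0.68, SE 0.075, edgeR FDR 5.62e-15).

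With TBHQ before the stimulus, *Tnf* was lower by a different amount for each stimulus. The log2FC was -0.24 in LPS + TBHQ against LPS (SE 0.032, edgeR FDR 1.51e-05) and -0.83 in PIC + TBHQ against PIC (SE 0.043, edgeR FDR 3.69e-18). The difference between these effects, tested as an interaction term, was -0.58 on the log2 scale (SE 0.053, edgeR FDR 1.76e-08). *Tnf* was the 1 of 9 genes with a called difference in the downward direction, where 1.01% of all tested genes had one, and 0 of 9 had one upward (1 at an unadjusted p under 0.05 in edgeR, 0 in DESeq2), where 0.825% did. The median of this difference over the 9 genes was -0.0029, and over all tested genes 0.0091. Not called were *Tnfsf9* (-0.32, edgeR FDR 0.139), *Tnfrsf1a* (-0.0029, edgeR FDR 0.991), *Tnfrsf1b*, *Tnfrsf9*, *Cd40* (0.10, edgeR FDR 0.711), *Fas* (0.04, edgeR FDR 0.931), *Traf1* (0.04, edgeR FDR 0.839) and *Traf2* (-0.01, edgeR FDR 0.973), and the sign for *Tnfrsf1a* and *Traf2* turned with total library sizes (0.04 and 0.03) and that for *Fas* and *Traf1* in limma on log2(FPKM + 1) (-0.03 and -0.0067). *Tnfsf9* was called without PIC + TBHQ replicate 3 (-0.42, edgeR FDR 0.0378, over a range up to 0.321). Across the leave-one-out fits the value for *Tnf* stayed between -0.62 and -0.56.

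*Tnfsf9* encodes 4-1BBL, the ligand of the receptor that *Tnfrsf9* encodes. Its levels were lower and moved less than those of *Tnf*, with counts of 389 to 775. The mean level was 19.96 ± 2.21 FPKM in control cells and 20.9 ± 1.05 FPKM after TBHQ alone. It was 24.0 ± 1.68 FPKM for LPS against 25.2 ± 1.60 FPKM for LPS + TBHQ, and 36.0 ± 0.640 FPKM for PIC against 30.0 ± 3.40 FPKM for PIC + TBHQ. Control and TBHQ libraries overlapped, as did LPS and LPS + TBHQ libraries, while PIC stood above every other condition in FPKM. In CPM by library totals LPS overlapped the control, and PIC + TBHQ overlapped PIC. The rise with PIC was 1.78-fold (log2FC 0.84, SE 0.093, edgeR FDR 2.15e-11). That with LPS was 1.20-fold (log2FC 0.26, SE 0.11, edgeR FDR 0.00987), and this call was lost without control replicate 3 (log2FC 0.19, edgeR FDR 0.0934), without LPS replicate 3 (0.21, edgeR FDR 0.0595) and with total library sizes (0.17, edgeR FDR 0.0837), over a range of 0.00179 to 0.0934. In PIC + TBHQ the log2FC against PIC was -0.25 (SE 0.094, edgeR FDR 0.0107), a call lost without PIC + TBHQ replicate 1 (-0.20, edgeR FDR 0.0822) and with total library sizes (-0.18, edgeR FDR 0.0597), within a range of 0.000855 to 0.0822 over all alternatives. The values with TBHQ alone (log2FC 0.07, SE 0.10, edgeR FDR 0.609) and in LPS + TBHQ against LPS (0.07, SE 0.078, edgeR FDR 0.59) did not pass the test. The lncRNA gene *Gm11110* overlaps *Tnfsf9* on the opposite strand by 639 bases and had 88 to 176 counts, and 11.5% of the 50-base words of *Tnfsf9* also occur in it. The libraries were strand-specific, but the strand setting of the counting is not given in the sources used here, so part of the *Tnfsf9* counts is uncertain.

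Among the 5 receptors of the 9 genes, the TNFR2 gene *Tnfrsf1b* (chr4:144940033-144973440, minus strand) changed most from the control, with either stimulus and with TBHQ alone. It gave 13.0, 12.2 and 12.0 FPKM in the control libraries and 26.3, 26.6 and 23.5 FPKM with TBHQ alone. With LPS the values were 178, 159 and 169 FPKM, and with LPS + TBHQ 132, 132 and 132 FPKM. With PIC they were 289, 294 and 297 FPKM, and with PIC + TBHQ 228, 218 and 217 FPKM. No libraries of different conditions overlapped, and the order of the conditions was that of *Tnf*. The rise was 13.5-fold with LPS (log2FC 3.76, SE 0.055, edgeR FDR 5.07e-37) and 23.4-fold with PIC (log2FC 4.55, SE 0.037, edgeR FDR 1.05e-39). TBHQ alone gave a log2FC of 1.03 (SE 0.069, edgeR FDR 9.86e-19), the highest of the 9 genes. After stimulation TBHQ lowered *Tnfrsf1b*, with a log2FC of -0.35 in LPS + TBHQ against LPS (SE 0.043, edgeR FDR 3.62e-09) and -0.40 in PIC + TBHQ against PIC (SE 0.026, edgeR FDR 1.29e-10). The difference between these effects did not pass the test (-0.05, SE 0.050, edgeR FDR 0.774).

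The TNFR1 gene *Tnfrsf1a* (chr6:125326325-125339447, plus strand) varied little, with counts of 1355 to 1908. Its level was 35.1 ± 1.90 FPKM in control cells and 42.7 ± 0.448 FPKM after TBHQ alone. LPS cells held 38.4 ± 1.298 FPKM and LPS + TBHQ cells 39.8 ± 2.26 FPKM, while PIC cells held 38.9 ± 1.02 FPKM and PIC + TBHQ cells 39.9 ± 2.92 FPKM. The TBHQ libraries were above those of the control, while the 4 stimulated conditions overlapped one another in FPKM. PIC was above the control in FPKM and overlapped it in CPM by library totals. The rise with TBHQ alone was 1.22-fold (log2FC 0.28, SE 0.046, edgeR FDR 3.85e-05). With LPS the log2FC was 0.12 (SE 0.054, edgeR FDR 0.0496), a call lost in 6 of 9 other settings, among them DESeq2 (0.13, FDR 0.0621) and total library sizes (0.03, edgeR FDR 0.617), and in 8 of 18 leave-one-out fits, over a range of FDR from 0.0147 to 0.617. It was lost without control replicate 2 (log2FC 0.10, edgeR FDR 0.191) or 3 (0.10, edgeR FDR 0.154), LPS replicate 2 (0.11, edgeR FDR 0.118) or 3 (0.13, edgeR FDR 0.0687), each TBHQ replicate (0.12 in each fit, edgeR FDR 0.0521, 0.059 and 0.057) or LPS + TBHQ replicate 3 (0.12, edgeR FDR 0.0571). With PIC the log2FC was 0.13 (SE 0.049, edgeR FDR 0.0246). That call was lost without control replicate 2 (0.11, edgeR FDR 0.118) or 3 (0.11, edgeR FDR 0.103) or PIC replicate 3 (0.13, edgeR FDR 0.0581), and the sign turned with total library sizes (-0.08, edgeR FDR 0.144, over a range from 0.00681), where the median of all tested genes was itself at -0.23. In the comparisons of TBHQ with each stimulus the gene was not called, at an edgeR FDR of 0.542 with LPS and 0.53 with PIC.

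The balance between these receptors changed with each stimulus. On the FPKM scale, the ratio of the *Tnfrsf1b* level to the *Tnfrsf1a* level was 0.354 ± 0.00591 in the control and 0.596 ± 0.0364 with TBHQ. It reached 4.40 ± 0.387 with LPS and 7.54 ± 0.133 with PIC. With TBHQ before the stimulus it was 3.33 ± 0.190 and 5.55 ± 0.318. TNFR1 transcripts were thus the more abundant per length in unstimulated cells and TNFR2 transcripts in stimulated cells, in every library.

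*Cd40* (chr2:164897547-164914868, plus strand) encodes the receptor through which T cells activate macrophages and other antigen-presenting cells. Its levels were 2.41, 2.70 and 2.76 FPKM in the control libraries and 1.52, 1.65 and 1.71 FPKM with TBHQ alone. LPS gave 12.7, 13.0 and 13.0 FPKM, and LPS + TBHQ 5.21, 6.03 and 5.86 FPKM. PIC gave 19.9, 19.8 and 18.98 FPKM, and PIC + TBHQ 9.56, 9.01 and 8.99 FPKM. Here the libraries with TBHQ were below their partners in all 3 pairs of conditions, and the level in PIC + TBHQ was below that in LPS. The gene rose 4.87-fold with LPS (log2FC 2.28, SE 0.061, edgeR FDR 1.49e-23) and 7.35-fold with PIC (log2FC 2.88, SE 0.064, edgeR FDR 1.92e-27). With TBHQ the log2FC was -0.70 against the control (SE 0.077, edgeR FDR 2.43e-06), -1.18 against LPS (SE 0.065, edgeR FDR 5.82e-16) and -1.08 against PIC (SE 0.037, edgeR FDR 6.85e-16).

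*Fas* (chr19:34268066-34305172, plus strand) encodes the death receptor for Fas ligand. It stood at 2.09, 2.50 and 1.87 FPKM in the control libraries and at 2.42, 3.05 and 3.22 FPKM with TBHQ alone. With LPS it stood at 8.97, 7.80 and 7.60 FPKM, and with LPS + TBHQ at 5.31, 4.52 and 4.75 FPKM. With PIC it stood at 17.3, 19.5 and 17.4 FPKM, and with PIC + TBHQ at 10.1, 10.8 and 12.3 FPKM. Control and TBHQ libraries overlapped, and the other conditions were separate from these and from each other. The rise was 3.76-fold with LPS (log2FC 1.91, SE 0.14, edgeR FDR 4.41e-15) and 8.30-fold with PIC (log2FC 3.05, SE 0.13, edgeR FDR 1.98e-22). TBHQ beforehand gave a log2FC of -0.74 against LPS (SE 0.099, edgeR FDR 2.48e-06) and -0.70 against PIC (SE 0.10, edgeR FDR 2.35e-07). The call with TBHQ alone (log2FC 0.43, SE 0.17, edgeR FDR 0.0265) was lost in a fit of those conditions only (0.43, edgeR FDR 0.0562) and without control replicate 1 (0.41, edgeR FDR 0.0707), control replicate 3 (0.33, edgeR FDR 0.147), TBHQ replicate 2 (0.39, edgeR FDR 0.0889) or TBHQ replicate 3 (0.34, edgeR FDR 0.134), over a range of 0.00874 to 0.147.

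*Tnfrsf9*, which encodes the costimulatory receptor 4-1BB, was the least abundant of the 9 genes, at 20 to 72 counts. It was at 0.618 ± 0.178 FPKM in control cells and 0.531 ± 0.0711 FPKM after TBHQ alone. LPS cells held 1.20 ± 0.110 FPKM and LPS + TBHQ cells 0.520 ± 0.0696 FPKM, and PIC cells 1.21 ± 0.325 FPKM and PIC + TBHQ cells 0.871 ± 0.182 FPKM. LPS libraries lay above those of the control and of LPS + TBHQ, and PIC libraries overlapped those of LPS and of PIC + TBHQ, and in CPM by library totals those of the control. The gene rose 1.92-fold with LPS (log2FC 0.94, SE 0.24, edgeR FDR 0.00251) and 1.94-fold with PIC (log2FC 0.95, SE 0.31, edgeR FDR 0.00157). TBHQ before LPS gave a log2FC of -1.20 (SE 0.13, edgeR FDR 0.000614), while the value before PIC was -0.46 (SE 0.27, edgeR FDR 0.154), did not pass and moved between -0.64 and -0.24 as single libraries were left out. The difference between these did not pass either (0.74, SE 0.30, edgeR FDR 0.348), nor did the change with TBHQ alone (-0.22, SE 0.25, edgeR FDR 0.614). *Tnfrsf9* overlaps *Camta1* on the opposite strand by 28781 bases, a gene with 99 to 160 counts, and 0 of its 50-base words occur in another gene.

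Of the adaptors, *Traf1* (chr2:34831762-34851784, minus strand) encodes a TRAF protein without the RING domain of its relatives and is known as an NF-κB target. It was at 4.00, 3.67 and 3.74 FPKM in the control libraries and at 4.04, 4.28 and 4.21 FPKM with TBHQ alone. LPS libraries held 20.8, 17.8 and 19.4 FPKM, and LPS + TBHQ libraries 11.1, 10.8 and 10.6 FPKM. PIC libraries held 44.2, 45.6 and 45.1 FPKM, and PIC + TBHQ libraries 25.9, 26.1 and 24.9 FPKM. The stimulated conditions were separate from one another and from the rest, with PIC + TBHQ above LPS. *Traf1* rose 5.06-fold with LPS (log2FC 2.34, SE 0.072, edgeR FDR 1.08e-29) and 11.7-fold with PIC (log2FC 3.55, SE 0.039, edgeR FDR 8.99e-36). TBHQ beforehand gave a log2FC of -0.84 against LPS (SE 0.064, edgeR FDR 3.08e-17) and -0.80 against PIC (SE 0.024, edgeR FDR 1.35e-17). With TBHQ alone the log2FC was 0.13 (SE 0.045, edgeR FDR 0.0746). That value passed the test without control replicate 1 (0.17, edgeR FDR 0.044), without LPS replicate 2 (0.14, edgeR FDR 0.0403) and in limma on log2(FPKM + 0.1) (0.13, FDR 0.0499), and was at most 0.235 over the alternatives.

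*Traf2*, which encodes the adaptor that carries ubiquitin ligases to TNFR1 and TNFR2, changed little, at 487 to 714 counts. The level was 6.16 ± 0.0562 FPKM in control cells and 6.67 ± 0.277 FPKM after TBHQ alone. LPS cells held 7.44 ± 0.462 FPKM and LPS + TBHQ cells 7.16 ± 0.264 FPKM, whereas PIC cells held 7.68 ± 0.512 FPKM and PIC + TBHQ cells 7.27 ± 0.430 FPKM. In FPKM every stimulated library was above every control library, which in CPM by library totals did not hold for PIC + TBHQ, and the stimulated conditions mostly overlapped one another. The rise was 1.20-fold with LPS (log2FC 0.27, SE 0.053, edgeR FDR 0.00109) and 1.23-fold with PIC (log2FC 0.30, SE 0.054, edgeR FDR 0.000157), the latter call being lost with total library sizes (0.09, edgeR FDR 0.25, the highest of a range from 4.75e-05). Neither TBHQ alone (log2FC 0.11, SE 0.034, edgeR FDR 0.216) nor TBHQ before LPS (-0.06, SE 0.061, edgeR FDR 0.594) or before PIC (-0.07, SE 0.074, edgeR FDR 0.464) gave a called change. On the FPKM scale, the ratio of the *Traf1* to the *Traf2* level was 0.618 ± 0.0220 in control cells and 0.627 ± 0.0198 after TBHQ alone. It was 2.61 ± 0.304 for LPS against 1.51 ± 0.0858 for LPS + TBHQ, and 5.87 ± 0.379 for PIC against 3.54 ± 0.285 for PIC + TBHQ.

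**Figure D2:**
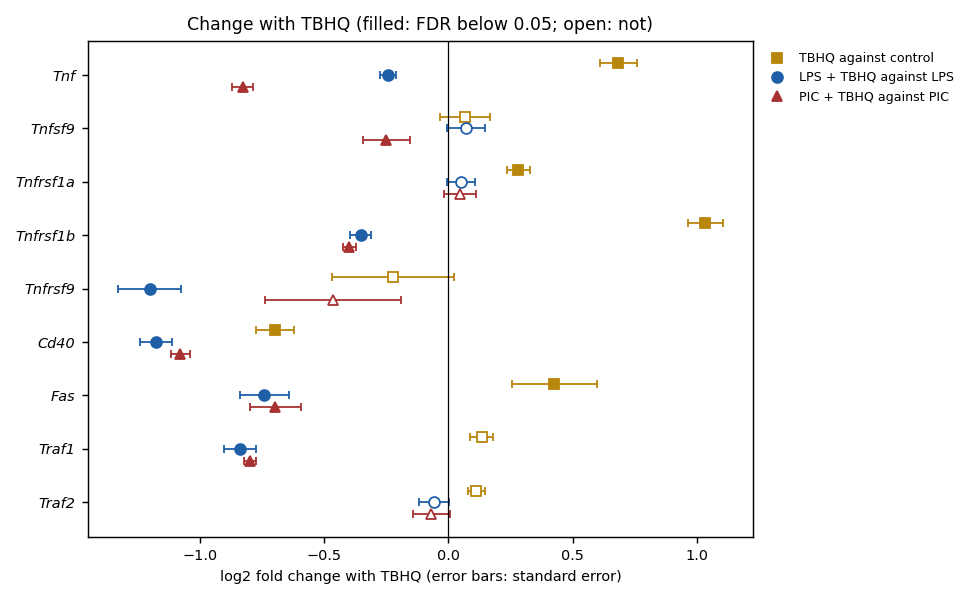
Log2 fold change of each of the 9 genes with TBHQ (horizontal axis), against the control (squares), against LPS (circles) and against PIC (triangles), with the standard error; filled symbols have an edgeR FDR below 0.05. *Tnf* (0.68) and *Tnfrsf1b* (1.03) lie to the right without a stimulus and to the left with LPS (-0.24 and -0.35) and with PIC (-0.83 and -0.40), whereas *Cd40* lies to the left throughout.

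Most of the genes were higher with PIC than with LPS. In PIC against LPS, 6 of 9 genes were called higher, where 14.9% of all tested genes were, and 0 of 9 lower (0 at an unadjusted p under 0.05 in edgeR, 0 in DESeq2), where 12.8% were. The median log2FC of the 9 was 0.59 and that of all tested genes -0.0087. The called genes were *Traf1* (log2FC 1.21, SE 0.063, edgeR FDR 1.76e-22), *Fas* (1.14, SE 0.092, edgeR FDR 1.36e-11), *Tnf* (1.10, SE 0.041, edgeR FDR 1.14e-21), *Tnfrsf1b* (0.79, SE 0.044, edgeR FDR 2.12e-18), *Cd40* (0.59, SE 0.027, edgeR FDR 1.65e-09) and *Tnfsf9* (0.58, SE 0.059, edgeR FDR 3.88e-07). The libraries of each of these genes did not overlap in FPKM, and overlap was not counted over all tested genes. The stimuli were used at their own doses, so the kind of stimulus and its strength cannot be told apart. *Tnfrsf1a*, *Tnfrsf9* and *Traf2* were not called, at an edgeR FDR of 0.892, 0.977 and 0.725, and the sign of each turned with total library sizes (-0.12, -0.12 and -0.09), where the median of all tested genes was at -0.14.

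After TBHQ the same comparison gave 7 of 9 higher with PIC + TBHQ than with LPS + TBHQ, against 11.9% of all tested genes, and 0 of 9 lower (0 at an unadjusted p under 0.05 in edgeR, 0 in DESeq2), against 8.39%. The median log2FC was 0.69 for the 9 genes and 0.0061 for all tested genes. *Traf1* (log2FC 1.25, SE 0.026) and *Fas* (1.19, SE 0.11) kept the highest values, *Tnfrsf1b* was at 0.74 (SE 0.023, edgeR FDR 1.89e-17) and *Cd40* at 0.69 (SE 0.070, edgeR FDR 1.22e-09), and *Tnf* was at 0.52 (SE 0.034, edgeR FDR 1.99e-12) where it had been at 1.10 without TBHQ. The additional call was *Tnfrsf9* (0.75, SE 0.20, edgeR FDR 0.0458), which was lost in 4 of 6 other settings and in 9 of 18 leave-one-out fits, at an edgeR FDR of up to 0.195. *Tnfsf9* (0.26, SE 0.11, edgeR FDR 0.0149) lost its call in 3 of 18 leave-one-out fits, with a log2FC down to 0.15 and an edgeR FDR of up to 0.214 without PIC + TBHQ replicate 3, and with total library sizes (0.17, edgeR FDR 0.101). *Tnfrsf1a* (0.0092, edgeR FDR 0.932) and *Traf2* (0.03, edgeR FDR 0.836) were not called, and the sign of each turned with total library sizes (-0.08 and -0.06).

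Several of the genes moved alike over the 18 libraries. As a description of log2 CPM, in which the libraries share their 6 conditions, the Pearson r was 0.99 between *Fas* and *Traf1*, 0.98 between *Tnf* and *Traf1*, 0.98 between *Tnf* and *Tnfrsf1b*, and 0.96 between *Cd40* and *Traf1* (n = 18). *Tnfrsf1a* stood apart from the rest, at 0.18 with *Tnf*, -0.15 with *Cd40* and at most 0.40, with *Traf2* (n = 18). Of the 10450 other genes (10451 for *Tnfrsf9*) with a mean of at least 50 counts, the closest to *Tnf* were *Ptgs2*, which encodes the prostaglandin synthase COX-2 (r = 0.995), *Kctd12* (0.993), *Phlda1* (0.992), *Hmga2* (0.991) and *Rapgef2* (0.991). *Tnfrsf1b* was closest to *Sqstm1*, the gene of the autophagy receptor p62 (0.997), to *Acod1*, the itaconate synthase gene (0.997), and to *Sema3e* (0.996). *Traf1* was closest to *Tnfaip3*, the gene of the NF-κB inhibitor A20 (0.997), *Cd274*, which encodes PD-L1 (0.997), and the chemokine gene *Ccl5* (0.996). *Fas* was closest to *Nfkbia* (0.990), *Tnfaip3* (0.987) and *Traf1* (0.986), and *Cd40* to *Cd52* (0.993), *Atf3* (0.992) and *Spink5* (0.992). The remaining genes had weaker partners: *Tnfsf9* with *Cfl1* (0.960), *Pip5k1a* (0.951) and *Pde4b* (0.947), *Traf2* with *Cers4* (0.898), *Camk2d* (0.876) and *Tsc22d2* (0.871), *Tnfrsf9* with *Adar* (0.885), *Ifit3b* (0.885) and *Apol9b* (0.882), and *Tnfrsf1a* with *Caskin2* (0.854), *Taf1c* (0.831) and *Rrp12* (0.830).

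Related genes of the pathway were counted in 6 lists, and no list was tested against the other genes. Of all tested genes, LPS raised 24.0% and lowered 24.1%, and PIC raised 28.6% and lowered 30.1%, while TBHQ raised 11.7% and lowered 12.2% in LPS cells, and raised 15.8% and lowered 15.5% in PIC cells. Of 16 other ligands, 7 had enough counts to be tested. LPS raised 1 and lowered 2 of them (1 in DESeq2, median log2FC 0.36), and PIC raised 3 and lowered 1 (0.26). Among the 7, *Tnfsf15* had 13 to 24 counts with PIC and at most 7 in any other condition. *Tnfsf18* had 15 to 19 counts in the control, 3 to 7 with LPS and 4 to 5 with PIC. Such genes may have passed the filter on low counts only through the condition where they were high, so any calls of them show little. *Ltb*, the lymphotoxin beta gene, rose with LPS (log2FC 0.36, SE 0.12, edgeR FDR 0.000689) and with PIC (0.77, SE 0.11, edgeR FDR 6.25e-10). It lies 3060 bases from *Tnf*, and *Lta*, which had 2 to 24 counts, 1157 bases on the other side. TBHQ lowered 2 of the 7 with LPS (1 in DESeq2) and raised 0 (edgeR, with 0 also at an unadjusted p under 0.05 and 0 in DESeq2), and with PIC it lowered 1 and raised 1, where DESeq2 called 0 in each direction. Of 23 other receptors, 13 were tested, of which LPS raised 6 and lowered 1 (median 0.12) and PIC raised 6 and lowered 2 (0.07). The rise was highest in *Tnfrsf8*, which encodes CD30 and is the next gene to *Tnfrsf1b*, 20266 bases away. *Tnfrsf8* went from 4 to 11 counts per control library to 123 to 159 with LPS and 260 to 348 with PIC (log2FC 4.23, SE 0.34, edgeR FDR 3.43e-17, and 5.26, SE 0.33, edgeR FDR 1.4e-21). Its control counts lay near the floor of 3, so the size of these rises is uncertain. It met the limit on mean counts for naming through the stimulated conditions. TBHQ beforehand lowered 2 of the 13 and raised 1 in LPS cells, and lowered 4 and raised 1 in PIC cells. *Tnfrsf8* fell (log2FC -0.90, SE 0.24, edgeR FDR 2.09e-05 with LPS, and -1.03, SE 0.084, edgeR FDR 1.13e-07 with PIC). So did *Eda2r*, a receptor for ectodysplasin (-1.88, SE 0.042, edgeR FDR 2.18e-09, and -1.85, SE 0.23, edgeR FDR 1.95e-09), which had been raised by LPS (1.35) and by PIC (1.47) and was at 22 to 38 counts in PIC + TBHQ. *Tnfrsf26* went the other way, at 0.20 with LPS (SE 0.075, edgeR FDR 0.0248) and 0.26 with PIC (SE 0.040, edgeR FDR 0.00223). The call of *Tnfrsf26* with LPS was lost in some alternative fits.

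Inside the cell, 17 of 17 other TRAFs, adaptors and kinases were tested. LPS raised 4, against 24.0% of all tested genes, and lowered 2, against 24.1% (median log2FC 0.06), and PIC raised 6, against 28.6%, and lowered 5, against 30.1% (0.10). TBHQ raised 1 and lowered 3 (2 in DESeq2) in LPS cells (0.03), and raised 4 and lowered 6 in PIC cells (0.05). *Traf5* rose with LPS (1.07, SE 0.088, edgeR FDR 1.64e-09) and PIC (1.24, SE 0.086, edgeR FDR 1.58e-11). *Tank*, the gene of a TRAF-binding protein, rose with PIC (0.84, SE 0.038, edgeR FDR 8.37e-19) and was lowered by TBHQ before it (-0.38, SE 0.028, edgeR FDR 3.29e-09). It was also lower with TBHQ before LPS (-0.23, SE 0.055, edgeR FDR 7.25e-05) and with TBHQ alone (-0.29, SE 0.032, edgeR FDR 3.05e-06). Its level was 17.4 ± 0.655 FPKM in the control and 24.0 ± 1.46 FPKM with LPS. In PIC cells TBHQ raised *Map3k5* (0.30, SE 0.075, edgeR FDR 0.00625) and *Tab1* (0.31, SE 0.094, edgeR FDR 0.0117). Each of these calls was lost in at least 1 leave-one-out fit. The list of ubiquitin ligases and deubiquitinases of the receptor complexes also held *Tnip1*, *Tnip2* and *Tnip3*, and 11 of 11 genes were tested. Of these 11, LPS raised 5 and lowered 1 (0.03), while PIC raised 6 and lowered 3 (2 in DESeq2, median 0.26). TBHQ lowered 6 of the 11 listed genes and raised 0 in LPS cells (median -0.20, edgeR, with 1 raised at an unadjusted p under 0.05 and 0 in DESeq2), and lowered 5 and raised 1 in PIC cells (-0.12). *Tnfaip3*, whose product A20 limits NF-κB signaling, had mean levels of 5.08 ± 0.0904 FPKM in the control, 19.3 ± 0.851 FPKM with LPS and 48.7 ± 1.24 FPKM with PIC, and of 13.4 ± 0.241 FPKM and 27.1 ± 0.0890 FPKM with TBHQ before each. Its log2FC with TBHQ was -0.53 with LPS and -0.83 with PIC, and the difference of -0.30 was called (SE 0.043, edgeR FDR 0.00142). *Birc3*, the gene of the ligase cIAP2, rose with PIC (1.62, SE 0.062, edgeR FDR 4.4e-25) and was lower in PIC + TBHQ (-0.55, SE 0.035, edgeR FDR 1.37e-11). It was also lower in LPS + TBHQ than in LPS (-0.40, SE 0.052, edgeR FDR 1.38e-07). Its level was 8.91 ± 0.613 FPKM in the control and 16.0 ± 0.510 FPKM with LPS. TBHQ before PIC raised *Rbck1* (0.20, SE 0.037, edgeR FDR 0.0055), a call lost without PIC + TBHQ replicate 1.

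Of 10 tested genes of death signaling below the receptors, each stimulus raised 5 and lowered 4 (median log2FC 0.18 for LPS and 0.13 for PIC), where LPS raised 24.0% and lowered 24.1% of all tested genes and PIC 28.6% and 30.1%. TBHQ raised 1, against 11.7%, and lowered 4, against 12.2%, in LPS cells (-0.16), and raised 2, against 15.8%, and lowered 5 (4 in DESeq2), against 15.5%, in PIC cells (-0.17). *Cflar*, whose product c-FLIP blocks caspase-8, rose with LPS (0.96, SE 0.030, edgeR FDR 3.15e-22) and PIC (1.58, SE 0.030, edgeR FDR 2.72e-29). *Mlkl*, the effector of necroptosis, rose as well (1.14, SE 0.047, and 1.40, SE 0.068). TBHQ before PIC lowered *Cflar* (-0.48, SE 0.025, edgeR FDR 1.49e-13) and raised *Ripk3* (0.23, SE 0.045, edgeR FDR 0.00135). *Bid* was raised by TBHQ before LPS (0.40, SE 0.027, edgeR FDR 7.97e-09) and before PIC (0.32, SE 0.044, edgeR FDR 3.09e-07). Of the 5 genes listed for shedding of TNF and its receptors, 4 were tested. LPS raised 2 and lowered 2 (median 0.19), and PIC raised 2 and lowered 1 (0.35). *Rhbdf2*, whose product iRhom2 brings the TNF-cleaving protease to the cell surface, was higher with LPS (0.84, SE 0.11, edgeR FDR 1.76e-15), PIC (1.28, SE 0.088, edgeR FDR 2.35e-21) and TBHQ alone (0.65, SE 0.087, edgeR FDR 9.3e-12), whereas *Adam17*, the gene of that protease, was lower with LPS (-0.26, SE 0.024, edgeR FDR 4.44e-07). TBHQ changed 1 of the 4 in LPS cells, upward, and 0 in PIC cells (edgeR, with 1 lower at an unadjusted p under 0.05 and 1 lower in DESeq2).

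The sequences before the starts of 4 genes that moved together are shown so that the letters at these promoters can be seen beside their levels. They are the 250 bases before the RefSeq gene start in build GRCm38.p6, in which positions are not those of the authors' files. RefSeq promoters were found for 7 of the 9 genes, with 8 starts, *Tnfrsf9* having more than 1, and not for *Tnfsf9* and *Cd40*. Both strands were searched for the NF-κB consensus (held by 3.90% of 32851 promoters of this length), AP-1 TGANTCA (6.75%), the ISRE core GAAANNGAA (7.13%), the antioxidant response element core TGACNNNGC (10.2%), CRE TGACGTCA (1.55%), the TATA box TATAAA (12.4%) and the GC box GGGCGG (32.7%), and capitals mark the matches, read on either strand. The windows are chr17:35202008-35202257 (minus strand) for *Tnf*, chr4:145246871-145247120 (minus strand) for *Tnfrsf1b*, chr19:34290409-34290658 (plus strand) for *Fas* and chr2:34961773-34962022 (minus strand) for *Traf1*.
Tnf: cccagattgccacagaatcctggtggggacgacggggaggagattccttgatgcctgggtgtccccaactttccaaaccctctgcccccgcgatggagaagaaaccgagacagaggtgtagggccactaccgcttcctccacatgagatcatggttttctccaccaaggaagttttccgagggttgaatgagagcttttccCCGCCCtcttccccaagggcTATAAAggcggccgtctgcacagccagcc
Tnfrsf1b: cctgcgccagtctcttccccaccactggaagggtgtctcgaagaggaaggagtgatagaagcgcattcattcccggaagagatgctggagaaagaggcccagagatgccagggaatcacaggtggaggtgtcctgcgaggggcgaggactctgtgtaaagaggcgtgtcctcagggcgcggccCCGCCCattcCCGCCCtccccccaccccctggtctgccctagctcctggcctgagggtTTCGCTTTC
Fas: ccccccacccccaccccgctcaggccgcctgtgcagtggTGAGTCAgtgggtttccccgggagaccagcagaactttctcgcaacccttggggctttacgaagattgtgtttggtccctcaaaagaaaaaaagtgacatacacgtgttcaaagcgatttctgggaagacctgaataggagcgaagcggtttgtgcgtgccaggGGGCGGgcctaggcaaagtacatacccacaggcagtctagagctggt
Traf1: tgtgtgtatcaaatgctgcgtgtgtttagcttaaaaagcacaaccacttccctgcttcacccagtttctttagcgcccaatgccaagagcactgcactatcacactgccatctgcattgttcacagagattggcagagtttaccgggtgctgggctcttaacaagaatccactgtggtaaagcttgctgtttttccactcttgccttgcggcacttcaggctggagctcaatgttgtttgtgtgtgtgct

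The *Tnf* window held a TATA box that began 29 bases before the start and a GC box that began at 49 bases. The *Tnfrsf1b* window held GC boxes at 67 and 57 bases and an ISRE core at 9 bases before the start. The *Fas* window held an AP-1 match at 211 bases and a GC box at 47 bases, and the *Traf1* window held 0 matches to these motifs. Of the other windows, the NF-κB consensus was found in 1, that of the second *Tnfrsf9* start, with 2 overlapping matches at 43 and 42 bases and AP-1 at 15 bases. The antioxidant response element core was found at the first *Tnfrsf9* start (43 bases, with a GC box at 10 bases) and at *Traf2* (77 bases). Matches to different motifs did not overlap in these windows, and a match or its absence describes only these letters.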

How the data were processed

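Per the study's methods, poly(A) RNA was sequenced from strand-specific libraries as paired ends. The submitters' processing notes name HISAT2 2.0.5, StringTie 1.3.3b and featureCounts 1.5.0-p3, and the study's methods give the genome as GRCm38/mm39, a mixed name. The authors deposited raw counts per gene, with no normalization. The authors also deposited FPKM, which matched each count over the length and the column sum, times a constant of 0.943 to 1.12 per library. The gene length in bases is the authors' own deposited column.

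Counts were read in Python 3.11.15 (pandas 2.3.3, numpy 2.4.6) and fitted in R 4.3.3 with edgeR 4.0.16 (filterByExpr, TMM, glmQLFit and glmQLFTest) in 1 model over 18 libraries with 1 coefficient per condition. The common dispersion was 0.00192. Standard errors came from log2 CPM with a prior count of 2. Figures were drawn with matplotlib 3.10.9. The edgeR fit was tested on simulated data, the other scripts were not. A GENCODE annotation of GRCm38 holds 52073 of the identifiers and places 50588 of them at a different start, 9 of the 9 genes included, so positions are those of the authors' files. Replicates differed beyond counting noise in every pair (chi-square per degree of freedom 2.49 to 4.61).

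All 9 genes are named in every comparison. From 6 lists of related genes, up to 2 called genes with the highest and up to 2 with the lowest log2FC were eligible, with a mean of at least 50 counts and no overlap between the libraries compared. The text names some of these, picked with their values and stability known. Outside this rule it names *Lta* as a neighbor, and *Tnfsf15* and *Tnfsf18* for their low counts. For each gene the 3 most similar genes (5 for *Tnf*) were taken by Pearson r. The members and lists were chosen with earlier results of these data known. Alternatives were RLE or total library sizes, DESeq2 1.42.0, the conditions compared only, no filter, the 10451 genes averaging 50 counts or more, a block for replicate number, limma 3.58.1 on log2(FPKM + 1) or log2(FPKM + 0.1) where FPKM averaged 1 or more, the study's threshold (FDR below 0.01 and log2FC beyond 2), and leaving out each library in turn. Proteins were not analysed here.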

Additional observations from a re-analysis of the deposited data

Results flagged for a closer look

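The effect of TBHQ on *Tnf* differed between the stimuli. The log2FC was -0.24 with LPS and -0.83 with PIC, and the interaction term was -0.58 (edgeR FDR 1.76e-08), with the 3 libraries with TBHQ below the 3 libraries without it for each stimulus. Over leaving out each library in turn the term lay between -0.62 and -0.56, and over the other settings between -0.60 and -0.54.

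For *Tnf* and *Tnfrsf1b*, TBHQ alone and TBHQ before a stimulus went in opposite directions, with no overlap between the libraries compared. Against the control, *Tnf* was higher with TBHQ alone by a log2FC of 0.68 and *Tnfrsf1b* by 1.03, while both were lower in LPS + TBHQ than in LPS and in PIC + TBHQ than in PIC. *Fas* also went both ways, at 0.43 with TBHQ alone, -0.74 against LPS and -0.70 against PIC. Its control and TBHQ libraries overlapped, and its call with TBHQ alone was lost in some alternative fits. This difference in direction was not tested. The cells with TBHQ alone were harvested at 4 h, those with TBHQ and a stimulus after a further 12 h, and the study design places the control with the 12 h treatments, so harvest time and stimulus cannot be told apart here.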

How the results depend on the processing

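Of 1296 fits of a gene with a library left out, 1231 kept the direction and the side of the threshold, 30 lost and 3 gained a call, and 32 turned sign. Of 624 fits under other settings the numbers were 594, 15, 1 and 14. For *Tnf*, *Tnfrsf1b*, *Cd40*, *Fas* and *Traf1* with LPS and PIC against the control, and with TBHQ in each stimulus, all kept both. At the study's threshold the members called were 0 higher and 0 lower with TBHQ alone, 4 higher with LPS, 5 higher with PIC, 0 lower with TBHQ in LPS or in PIC, 0 higher in PIC against LPS or PIC + TBHQ against LPS + TBHQ, and 0 for the interaction. Leaving out a library gave 1 to 2 genes with a lower interaction term, 2 being reached without PIC + TBHQ replicate 3, where *Tnfsf9* passed (-0.42, edgeR FDR 0.0378, of a range up to 0.321). Signs turned with total library sizes for *Tnfrsf1a* in PIC against control (-0.084), PIC against LPS (-0.12), PIC + TBHQ against LPS + TBHQ (-0.077) and the interaction (0.041), for *Traf2* in PIC against LPS (-0.092), PIC + TBHQ against LPS + TBHQ (-0.059) and the interaction (0.032), and for *Tnfrsf9* in PIC against LPS (-0.12). Total library sizes split all called genes into 2379 higher and 6635 lower in PIC against control, where TMM gave 3917 and 4120, 2454 and 4558 in LPS against control (TMM 3283 and 3306), and 985 and 4373 in PIC against LPS (TMM 2035 and 1752). In PIC + TBHQ against LPS + TBHQ the split was 890 and 2582 (TMM 1623 and 1149), in LPS + TBHQ against LPS 2061 and 1401 (TMM 1601 and 1673), in PIC + TBHQ against PIC 3398 and 1436 (TMM 2167 and 2118), and for the interaction 235 and 74 (TMM 113 and 138). In PIC + TBHQ against LPS + TBHQ *Tnfrsf1a* turned in a fit of these conditions only (-0.0013), with no filter (-0.0063) and at a mean of at least 50 counts (-0.0017). In limma on log2(FPKM + 1) the interaction turned for *Fas* (-0.028) and *Traf1* (-0.0067). The mean of at least 50 counts and limma gave no value for *Tnfrsf9*. The cause of these turns was not tested. Leave-one-out ranges that crossed 0 were -0.0078 to 0.15 for *Tnfsf9* and -0.41 to 0.020 for *Tnfrsf9* with TBHQ alone, -0.0081 to 0.095 for *Tnfrsf1a* in PIC + TBHQ against PIC, and, in PIC against LPS, -0.015 to 0.038 for *Tnfrsf1a*, -0.23 to 0.17 for *Tnfrsf9* and -0.018 to 0.090 for *Traf2*. In PIC + TBHQ against LPS + TBHQ they were -0.044 to 0.059 for *Tnfrsf1a* and -0.0051 to 0.070 for *Traf2*. For the interaction they were -0.056 to 0.047 for *Tnfrsf1a*, -0.045 to 0.11 for *Fas*, -0.017 to 0.078 for *Traf1* and -0.075 to 0.033 for *Traf2*. None of these results was called in the fit of all 18 libraries. The replicate numbers carry no stated pairing, and 0 of 45 pairs with the same number had a correlation of deviations over 0.1 (range -0.044 to 0.065), while 7 of 18 libraries correlated best with their own number. With the replicate block the call of *Tnfrsf1a* in LPS against control was lost (0.12, edgeR FDR 0.0531), the sign of *Tnfrsf9* in PIC against LPS turned (-0.013), and genes called in LPS against control went from 3283 to 3291 higher. Of 1054 fits of the related genes named by rule under other settings, 1033 kept direction and call and 21 lost the call, and of 2124 with a library left out 2056 and 68. The counts of called genes per list were less stable. They moved to or from 0, or by more than a set ratio, in 77 of 864 cases under other settings. With a library left out they did so in 89 of 1728. Low counts limit *Tnfrsf9*.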
